A study of Homo sapiens with 6 samples.

Results

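Cadherins and protocadherins were examined in A375 cells, a human melanoma cell line, in which the kinase gene MAP4K5 had or had not been knocked down. The genes were chosen by name: every gene symbol of the platform annotation made of CDH and a number or starting with PCDH, except CDH19, which the rule leaves out. These were 87 of the 18132 genes read by a probe set with a single symbol, and they were read by 176 probe sets. Each gene was represented by its brightest probe set over all 6 arrays.

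The study compared 3 arrays of A375 cells stably carrying a short hairpin RNA against MAP4K5 (knockdown) with 3 arrays of A375 cells (control), all untreated and all labelled as biological replicates. Both groups share the cell line and the growth medium, DMEM with 10% FBS. The labels name a control vector for neither group, and they do not say whether the knockdown line was a pool or 1 clone, and what the hairpin or the making of the line did by itself is confounded with the loss of MAP4K5: these cannot be told apart. Nor do they say how the cultures were kept apart, and p-values therefore describe only how far these 6 arrays scatter, which may be technical. In a bulk sample, fewer cells of a kind and less RNA per cell cannot be told apart. Levels are RMA intensities on a linear scale. Probe sets differ in how strongly they bind, so an intensity shows how bright a probe set was, not how many transcripts there were.

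Cadherins are membrane proteins that hold cells together through calcium-dependent repeats outside the cell. Classical cadherins bind catenins with their cytoplasmic tails and so reach the actin cytoskeleton. Melanocytes in skin use E-cadherin to contact keratinocytes, and melanoma cells often carry N-cadherin in its place. Protocadherins are a larger branch known mostly from the nervous system. Many of them sit in the alpha, beta and gamma gene clusters, from which single cells use changing subsets of promoters.

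MAP4K5 measured 19.7, 18.8 and 20.3 in knockdown cells, against 77.7, 78.1 and 76.3 in control cells, which left 25.3% of the control level. The control arrays differed among themselves. The first principal component held 63.9% of the variance over all genes, and control replicate 2 scored 0.32 on it, between the knockdown arrays, at -21.04 to -17.88, and controls 1 and 3, at 29.94 and 28.19. At a Benjamini-Hochberg adjusted p of 0.05, limma (linear models with a shared variance estimate) called 7.83% of all genes, with 3.7% higher and 4.13% lower in knockdown cells. Without control replicate 2 it called 20.6%. Of the 9 melanoma and melanocyte markers measured, 6 lay above the median gene (MITF, SOX10, S100B, NES, VIM and AXL), while PMEL and MLANA lay in the lowest 25% of genes and TYR below the median. Of these, MITF was higher in knockdown cells (log2 0.99) and S100B (-1.31) and SOX10 (-0.54) were lower, all called in limma. Their part in the cadherin values was not tested. None of the endothelial (3), leukocyte (3) or fibroblast (4) markers measured reached the median gene.

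Of the 87 genes, 2 rose and 3 fell in knockdown cells, and 82 were not called. PCDH9 and CDH11 rose, and CDH12, PCDHB6 and PCDHB15 fell. That is 5.75% of the family called, against 7.83% of all genes. CDH11 was the 1 called gene that differed at least 2-fold, as 0.987% of all genes did. The median log2 fold change of the family was -0.0032, against 0.01 over all genes. The knockdown and control arrays did not overlap for 11 of the 87 genes (12.6%), against 28.1% of all genes: 4 lay higher in knockdown cells (PCDH9, CDH11, CDH17 and PCDHA8) and 7 lower (CDH12, CDH2, PCDH18, PCDHB6, PCDHB10, PCDHB12 and PCDHB15).

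Most of the family was dim. Only 11 of the 87 genes lay above the median of all gene means, an intensity of 8.68, and 40 lay in the lowest 25%, under 3.06. Among genes above the median, 3 of the 11 family members were called (27.3%), against 13.5% of all genes there. At or below it, 2 of the 76 members were called (2.63%), against 2.16% of all genes there. Differences between dim probe sets are compressed in RMA values, and a missing call there does not show that a gene did not differ.

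**Figure D1:**
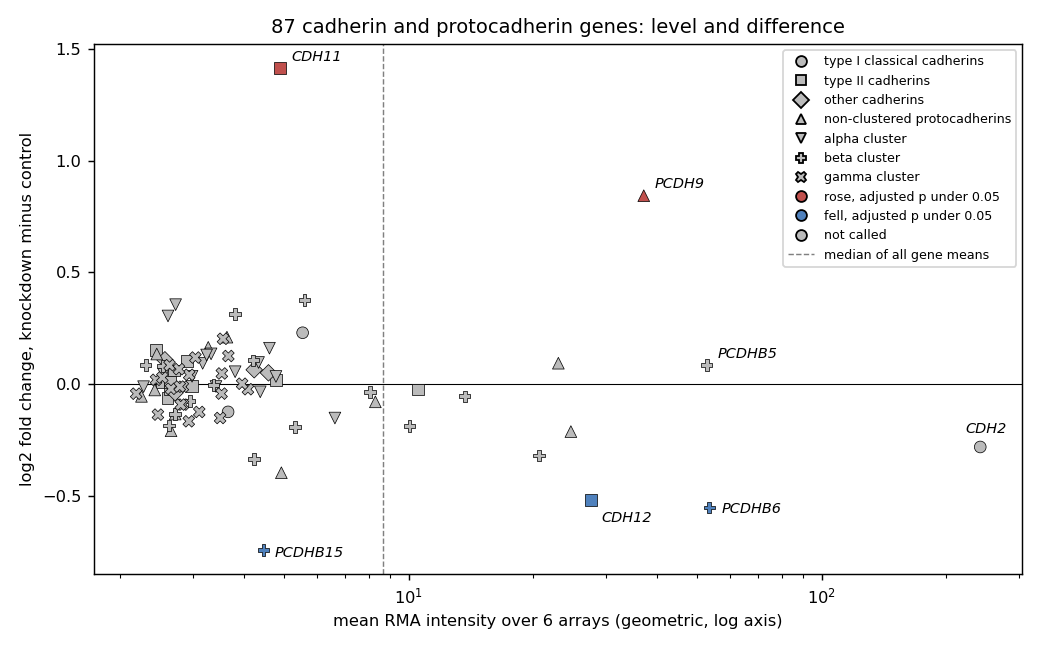
Log2 fold change (knockdown minus control) against mean RMA intensity on a log axis for the 87 genes, with marker shape for the class and colour for the limma call. Most genes sit left of the dashed line at 8.68, and PCDH9, CDH12, PCDHB6, CDH11 and PCDHB15 are the 5 coloured points.

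None of the 4 type I classical cadherins among the 87 genes was called. CDH2, the N-cadherin gene of neural and mesenchymal cells, measured 219.5, 216.5 and 222.9 in knockdown cells, against 304.4, 263.4 and 236.4 in control cells. All 3 knockdown arrays lay below all 3 controls. The control arrays spread widely, and the difference was not called: log2 -0.28 ± 0.10 (SE, n = 3 each), 95% interval -0.52 to -0.04, limma adjusted p = 0.148. It missed the threshold in all 6 fits that left out 1 array as well. The other CDH2 probe set stood at -0.21.

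CDH1, the E-cadherin gene of epithelia, measured 2.54, 2.83 and 2.70 in knockdown cells and 2.88, 2.84 and 2.48 in control cells. Both groups lay in the lowest 25% of genes and overlapped, with a log2 difference of -0.02 (95% interval -0.23 to 0.19, limma adjusted p = 0.922). CDH3, the P-cadherin gene, averaged 3.51 ± 0.29 in knockdown cells and 3.83 ± 0.47 in control cells (SD, n = 3 each), with an interval of -0.38 to 0.14. CDH15, known from muscle, was the remaining type I gene among the 87 and was not called either. CDH4 and CDH13 were not among the 87 genes. The summed intensity of the 5 epithelial markers measured was higher in knockdown cells, at 1892 to 2195, against 1191 to 1339 in control cells, nearly all of it from KRT18. EPCAM averaged 2.34 in knockdown cells and 2.48 in control cells. The part of that shift in the cadherin values was not tested.

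The type II cadherins were mostly unreadable here: 8 of the 12 genes lay in the lowest 25% of genes. The exceptions with calls were CDH12 and CDH11, which moved in opposite directions.

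CDH12, a cadherin known from brain, measured 22.8, 24.97 and 21.7 in knockdown cells, against 36.5, 29.4 and 33.7 in control cells. The groups did not overlap, and the gene fell 1.43-fold, a log2 fold change of -0.52 ± 0.10 (SE), with a limma adjusted p of 0.025. All 3 of its probe sets were called in the test per probe set, at -0.52, -0.57 and -0.67, where 4.43% of all probe sets were called. The direction was the same in each of 6 fits without 1 array (-0.60 to -0.45), but the call was kept only without control replicate 2.

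CDH11, a cadherin of mesenchymal cells and osteoblasts, measured 8.83, 6.61 and 8.68 in knockdown cells, against 2.45, 4.43 and 2.47 in control cells. Controls 1 and 3 were at the bottom of the scale, control 2 was in between, and the knockdown arrays were near the median gene. CDH11 rose, with a fitted log2 fold change of 1.41 ± 0.23 (SE) and a limma adjusted p that was 0.0109. The size of the rise is uncertain, since controls 1 and 3 lay as low as the dim CDH11 probe sets that showed no call. With a pseudocount of 8 it was 0.53. The rise rested on 1 of 6 probe sets. The other 5 had means of 2.17 to 2.97 in knockdown cells and 2.02 to 2.77 in control cells, and fold changes of -0.09 to 0.17. With the probe sets averaged, CDH11 stood at 0.28 and lost its call (limma adjusted p = 0.0721). It also lost it without knockdown replicate 1 or 3 (1.34 and 1.35).

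CDH24, above the median gene, overlapped between groups and was not called. VE-cadherin, CDH5, which joins endothelial cells, averaged 2.77 ± 0.22 in knockdown cells and 2.65 ± 0.20 in control cells (SD, n = 3 each), and its difference had a 95% interval of -0.16 to 0.28. CDH6, CDH7, CDH8, CDH9, CDH10, CDH18, CDH20 and CDH22 were not called. The 4 cadherins among the 87 genes outside these types were CDH16 of kidney, CDH17 of intestine, CDH23 of the inner ear hair cell and CDH26. None was called, and their means lay between 2.57 and 4.58.

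**Figure D2:**
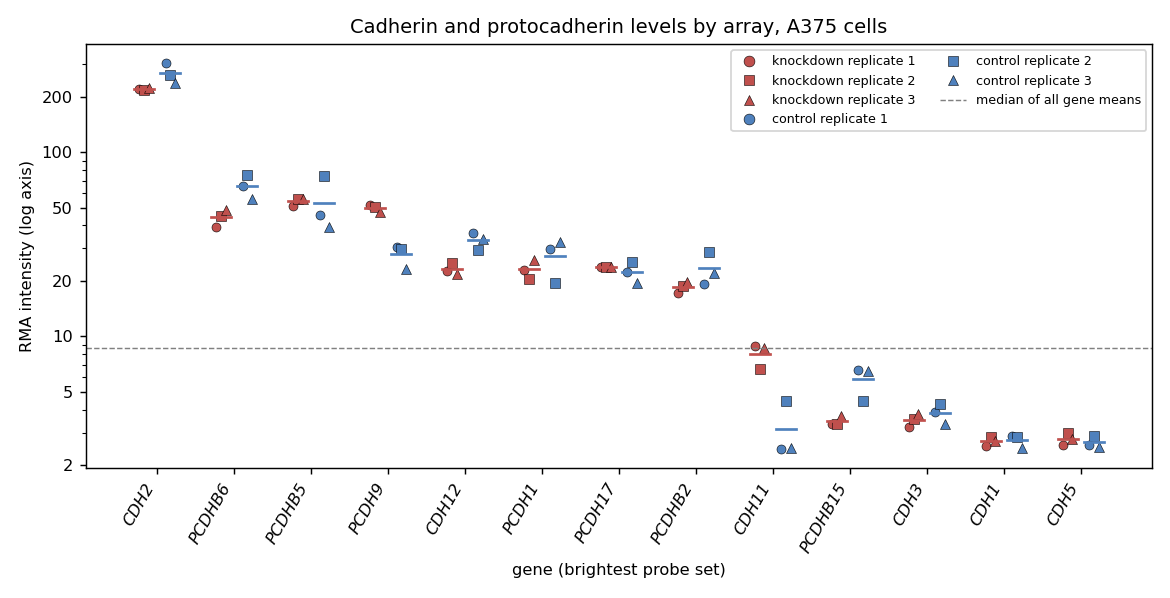
RMA intensity (log axis) of 13 genes in each array, knockdown in red and control in blue, with marker shape for the replicate, a bar for the group mean and a dashed line at the median gene. PCDH9 and CDH11 sit higher in all 3 knockdown arrays, CDH12, PCDHB6, PCDHB15 and CDH2 lower, and CDH1, CDH3 and CDH5 lie at the bottom in both groups.

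Among the 12 non-clustered protocadherins, PCDH9 was the only one called. PCDH9, a protocadherin of the developing nervous system, measured 51.5, 50.4 and 47.2 in knockdown cells, against 30.7, 29.8 and 23.2 in control cells. Every knockdown array lay well above every control, control replicate 2 included. The gene was 1.79-fold higher (log2 0.84 ± 0.12 SE, limma adjusted p = 0.00632).

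Of the 5 called genes, PCDH9 was the 1 that stayed called in all 6 fits without 1 array, with fold changes of 0.72 to 0.92. Its next probe set measured 31.3, 29.7 and 33.1 in knockdown cells, against 21.3, 18.04 and 20.01 in control cells, and rose as well (0.67 ± 0.10). The third, with means of 2.44 in knockdown cells and 3.07 in control cells, pointed the other way at -0.33 and was not called (limma adjusted p = 0.098). With the 3 probe sets averaged, PCDH9 stood at 0.39 and was still called (limma adjusted p = 0.0192). So the rise was read by both probe sets above the median gene.

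PCDH1, a protocadherin of epithelial and neural cells, measured 22.96, 20.4 and 25.9 in knockdown cells, against 29.8, 19.4 and 32.5 in control cells. Control replicate 2 was the lowest of all 6 arrays, and the difference was -0.21 (95% interval -0.64 to 0.22). Without that array PCDH1 fell, by 0.44 on the log2 scale (limma adjusted p = 0.029). PCDH17, known from synapses, measured 23.7, 23.9 and 23.7 in knockdown cells, against 22.4, 25.4 and 19.5 in control cells. Its groups overlapped, and the interval of the difference was -0.15 to 0.34. PCDH7, PCDH8, PCDH10, PCDH11X, PCDH12, PCDH15, PCDH18, PCDH19 and PCDH20 were not called, and all lay below the median gene. PCDH18 lay lower in all 3 knockdown arrays (4.09 to 4.48) than in control cells (4.53 to 7.84), without a call (limma adjusted p = 0.244).

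**Figure D3:**
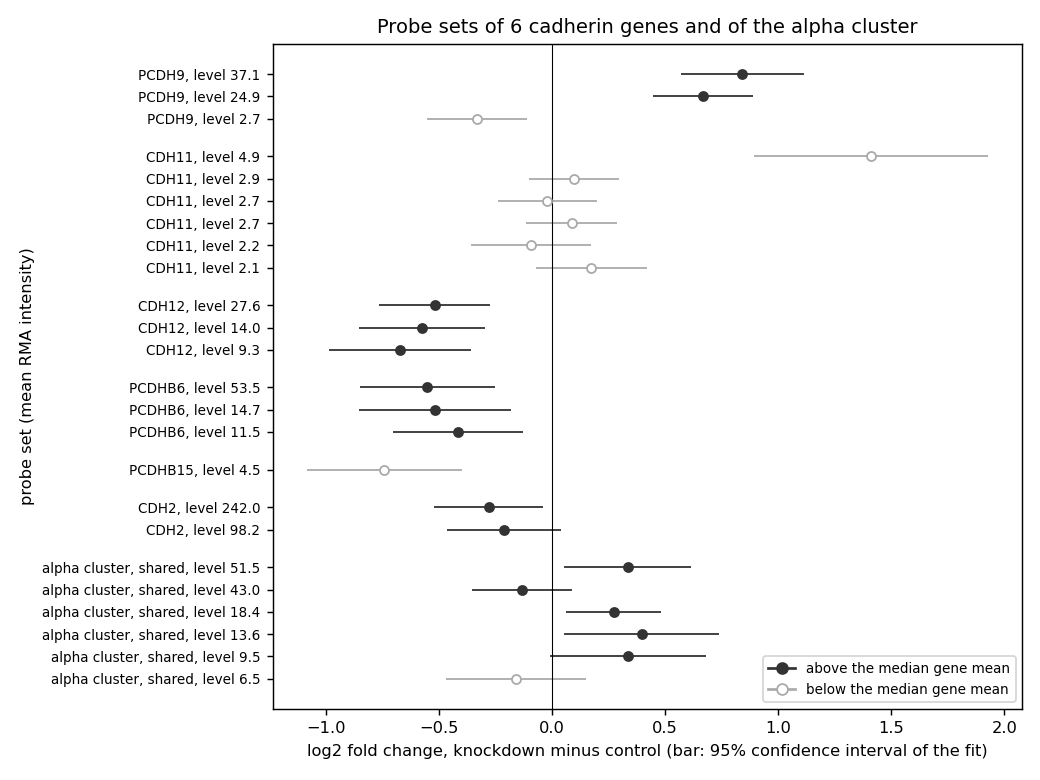
Log2 fold change (knockdown minus control) with its 95% confidence interval for each probe set of PCDH9, CDH11, CDH12, PCDHB6, PCDHB15 and CDH2 and for the 6 probe sets shared by the alpha cluster, labelled with the mean RMA intensity. The 3 CDH12 and 3 PCDHB6 probe sets lie left of 0, while 1 of 6 CDH11 probe sets stands apart from the rest.

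The clustered protocadherins made up most of the family, with 15 alpha, 18 beta and 22 gamma genes. In the alpha and gamma clusters every gene read singly lay below the median gene, with means of 2.28 to 6.63 and 2.19 to 4.08, and none was called. In the beta cluster, PCDHB2, PCDHB5, PCDHB6, PCDHB7 and PCDHB16 lay above the median gene.

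Each beta gene is a single exon with a promoter of its own, and these promoters share a short conserved element. In RefSeq (GRCh38.p14), 67 of the 87 genes had an entry among the sequences from 250 bases before to 50 after a gene start, with 84 starts. The letters GTGGCGCT, picked here because they recur in beta promoters and searched on both strands, were found in 13 of 14 beta promoters, against 1.15% of all 35116 promoters. They began 1 to 83 bases before the gene start, with a median of 65. The beta promoter without them was that of PCDHB1. They were in none of the 13 alpha or 25 gamma promoters. Letters picked from beta promoters cannot show whether alpha and gamma promoters carry a related form of the element. The sequences below show the element with these letters in capitals, all on the plus strand of GRCh38.p14. They are those of a beta gene that fell (PCDHB15), the bright beta genes with an entry (PCDHB2, PCDHB5, PCDHB7, PCDHB16) and a pair of dim ones (PCDHB3, PCDHB10).
PCDHB15, chr5:141245312-141245351: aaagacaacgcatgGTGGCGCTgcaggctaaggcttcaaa
PCDHB2, chr5:141094542-141094581: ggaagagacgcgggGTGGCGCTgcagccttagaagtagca
PCDHB5, chr5:141135177-141135216: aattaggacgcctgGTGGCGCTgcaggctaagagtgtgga
PCDHB7, chr5:141172564-141172603: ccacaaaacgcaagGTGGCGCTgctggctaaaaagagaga
PCDHB16, chr5:141182308-141182347: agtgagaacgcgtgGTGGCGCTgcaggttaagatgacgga
PCDHB3, chr5:141100391-141100430: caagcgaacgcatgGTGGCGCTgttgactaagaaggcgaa
PCDHB10, chr5:141192297-141192336: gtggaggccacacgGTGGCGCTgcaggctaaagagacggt

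The 13 genes that carry it had mean intensities of 2.31 (PCDHB3) to 52.7 (PCDHB5), and PCDHB1 without it had 2.72. Fold changes of the 13 ran from -0.74 to 0.38.

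PCDHB6 measured 39.3, 45.2 and 48.5 in knockdown cells, against 65.2, 75.0 and 55.4 in control cells. The groups did not overlap, and PCDHB6 fell 1.46-fold, a log2 fold change of -0.55 ± 0.13 (SE), with a limma adjusted p of 0.04. Its other probe sets stood at -0.52 and -0.41, so all 3 pointed down, though none was called in the test per probe set (adjusted p = 0.0535 for the brightest). Its brightest probe set ends in _s_at, the mark of probes that can bind several transcripts. Without such probe sets PCDHB6 stood at -0.52 and was not called (adjusted p = 0.0754). Among the 6 fits without 1 array, the call was kept without control replicate 2 or 3.

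PCDHB15 measured 3.34, 3.32 and 3.68 in knockdown cells, against 6.55, 4.47 and 6.51 in control cells. The knockdown arrays lay together near the bottom of the scale and control 2 lay between them and the other controls. PCDHB15 fell 1.67-fold, a log2 fold change of -0.74 ± 0.15 (SE) with a limma adjusted p of 0.0249, read by its only probe set. With a pseudocount of 8 it stood at -0.27 and was not called. The call was kept only without control replicate 2 among the fits without 1 array.

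All 5 bright beta genes were highest, of the 6 arrays, in control replicate 2. In all, 6 of the 18 beta genes were highest there, against 1 to 3 in each other array. Of the 87 family members 17 were highest there, within the 8 (control replicate 3) to 20 (control replicate 1) of the other arrays. PCDHB3, PCDHB4 and PCDHB9 were lowest in control replicate 2. The share over all genes was not counted. PCDHB5 measured 51.2, 56.0 and 55.7 in knockdown cells, against 45.5, 74.6 and 39.4 in control cells, so the knockdown arrays lay inside the control range. Its difference was 0.09 (95% interval -0.39 to 0.56). PCDHB2 measured 17.2, 18.7 and 19.8 in knockdown cells, against 19.3, 28.8 and 22.1 in control cells (-0.32, limma adjusted p = 0.23). Its other probe set stood at -0.39 and was not called. A probe set shared by PCDHB2 and PCDHB3 lay lower in all 3 knockdown arrays, at -0.37. It was not called in the test per probe set (limma adjusted p = 0.0791). PCDHB7 measured 13.2 to 13.7 in knockdown cells and 13.1 or less in controls 1 and 3, against 16.6 in control 2.

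Leaving out control replicate 2 changed the calls in the beta cluster: PCDHB5 (0.36), PCDHB13 (0.59) and PCDHB8 (0.52) rose, and PCDHB6 (-0.44) and PCDHB15 (-0.92) fell. PCDHB13 (mean 5.60) and PCDHB8 (mean 3.79) lay below the median gene. In the full set the 5 PCDHB13 probe sets ran from -0.21 to 0.38. Over the whole family 5 genes rose and 4 fell in that fit, which is 10.3% called, against 20.6% of all genes. PCDHB10 and PCDHB12 lay lower in all 3 knockdown arrays than in any control in the full set without a call. The pseudogenes PCDHB17P and PCDHB18P and the genes PCDHB1, PCDHB3, PCDHB4, PCDHB9, PCDHB11 and PCDHB14 were not called. Beta genes resemble each other closely, and how far their probes bind each other's transcripts was not tested.

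**Figure D4:**
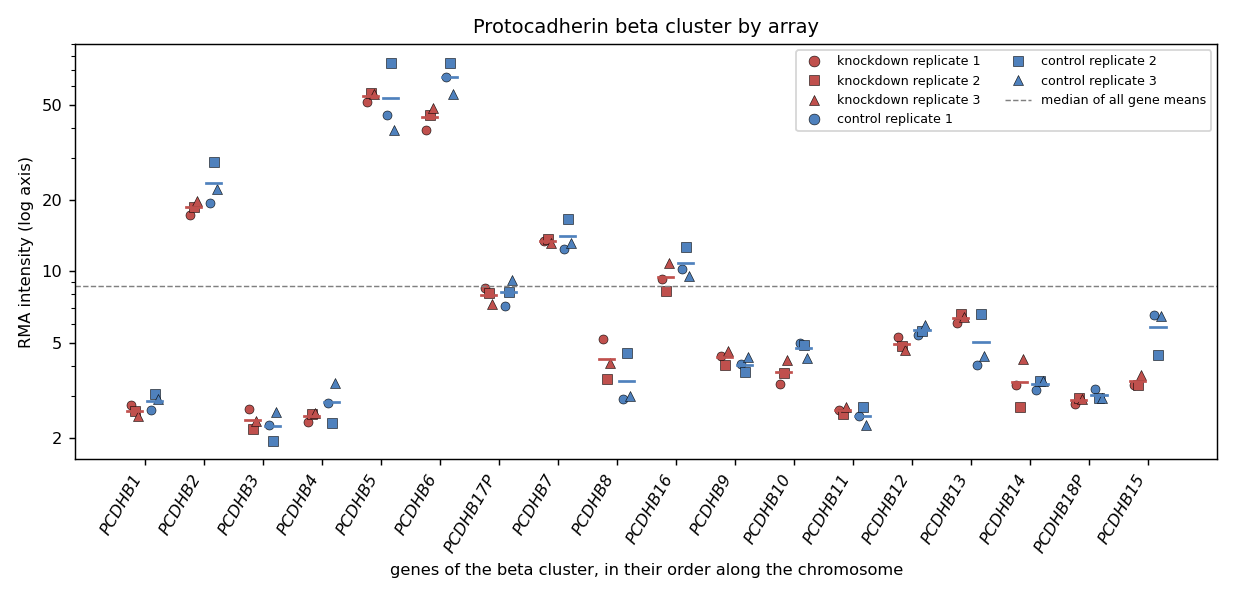
RMA intensity (log axis) of the 18 beta cluster genes in each array, in their order along the chromosome, knockdown in red and control in blue, with a bar for the group mean. PCDHB2, PCDHB5, PCDHB6, PCDHB7 and PCDHB16 lie above the dashed median gene line, each highest in control replicate 2.

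Transcripts of the alpha cluster share their last exons, and 6 probe sets were paired with all 15 alpha symbols. They are outside the gene table for that reason. Their means ran from 6.46 to 51.5, and most lay above the median gene, unlike the alpha genes read singly. The brightest measured 60.5, 57.3 and 56.0 in knockdown cells, against 39.8, 54.8 and 44.4 in control cells. Fold changes ran from -0.16 to 0.40, with 4 positive and 2 negative, and none was called in the test per probe set (smallest limma adjusted p = 0.145). The alpha genes read singly showed no call, with PCDHA8 at 2.87, 2.69 and 3.19 in knockdown cells, against 2.40, 2.29 and 2.36 in control cells (limma adjusted p = 0.0772). No probe set was paired with several gamma symbols and no others, so the gamma cluster was read only by its single genes. Their low intensities do not show that the gamma cluster was silent.

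Beyond the family, 5 lists of genes around cadherins were counted, with 100 of 103 genes measured. Together 5 rose and 7 fell. Of the 59 above the median gene 10 were called (16.9%), against 13.5% of all genes there, and of the 41 at or below it 2 were called (4.88%), against 2.16% of all genes there. Counts list by list follow without such shares and do not show that a list was called more or less often. List medians of the log2 fold change ran from -0.02 to 0.04, close to the 0.01 of all genes.

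Of the 20 measured catenins and cadherin partners, 4 rose, 1 fell and 15 were not called. JUP, the junction protein plakoglobin, measured 13.7, 11.2 and 12.2 in knockdown cells, against 9.11, 9.26 and 8.96 in control cells (log2 0.44 ± 0.09 SE, limma adjusted p = 0.0297). NECTIN1, an adhesion molecule of adherens junctions, rose by 0.42, and CTNNBIP1, an inhibitor of beta-catenin, by 0.41. The phosphatase PTPN1 rose by 0.38, named after its value was seen. PTPRM, a receptor phosphatase that binds cadherins, fell by 0.66: it averaged 90.7 ± 5.5 in knockdown cells and 146.0 ± 33.5 in control cells (SD, n = 3 each). These 5 calls were kept only without control replicate 2 among the fits without 1 array. In the test per probe set, none of the 4 probe sets each of NECTIN1, CTNNBIP1 and PTPRM was called. PTPN1 had 1 of 2 called, and the only JUP probe set was called. The catenins CTNNA1 and CTNNB1 were not called.

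Of the 21 repressors of E-cadherin and related factors, 3 fell, none rose and 18 were not called. ZEB1, a repressor of CDH1, measured 72.5, 75.6 and 75.7 in knockdown cells, against 140.0, 126.9 and 137.1 in control cells. It was 1.80-fold lower with no overlap (log2 -0.85 ± 0.08 SE, limma adjusted p = 0.00112), and it was called in all 6 fits without 1 array. All 7 ZEB1 probe sets are of the kinds whose probes can bind several transcripts, and the gene drops out when those are removed. TWIST1 measured 36.3, 37.7 and 42.9 in knockdown cells, against 67.8, 56.2 and 62.2 in control cells (-0.67 ± 0.10). It lost its call without knockdown replicate 1 or 2. PRRX1, a mesenchymal homeobox factor, fell by 0.77 and kept its call only without control replicate 2. None of its 2 probe sets was called in the test per probe set. CDH1 lay at the bottom of the scale in both groups, where a missing call does not show that it did not differ. A link between these falls and CDH1 was not tested.

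The E-box letters CAGGTG, to which ZEB and SNAI proteins can bind, were found on either strand in 8 of the 84 promoters of the family (9.52%), against 20.6% of all promoters. CDH1 has no entry in the promoter table. The AP-1 letters TGANTCA were in 5 of the 84 (5.95%), against 7.71% of all promoters. These are matches of letters within the window and no evidence of binding.

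Of 16 genes that cut or recycle cadherins, MMP3 rose, ADAM17 fell and 14 were not called. MMP3, a stromelysin that can cut E-cadherin, measured 19.5, 13.7 and 14 in knockdown cells, against 5.92, 3.13 and 2.80 in control cells. It was 4.17-fold higher with no overlap (log2 2.06 ± 0.27 SE, limma adjusted p = 0.00489) and was called in all 6 fits without 1 array, read by a single probe set that can bind several transcripts. ADAM17, a sheddase, measured 81.5, 88.3 and 90.1 in knockdown cells, against 124.5, 109.4 and 154.8 in control cells (-0.57 ± 0.13), and kept its call only without control replicate 2. Of its 4 probe sets, 1 was called in the test per probe set. ADAM10, the main sheddase of E- and N-cadherin, was not called.

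Of 18 regulators of the protocadherin clusters, DNMT3A and KMT5B fell and 16 were not called, CTCF, SMCHD1 and the cohesin genes among them. DNMT3A, a DNA methyltransferase, measured 6.30, 4.99 and 5.82 in knockdown cells, against 9.25, 7.47 and 10.6 in control cells (-0.66 ± 0.14). Both calls were kept only without control replicate 2. In the test per probe set, 1 of 4 DNMT3A probe sets and none of 6 KMT5B probe sets was called. Of the 25 other cadherin superfamily genes, such as the FAT, CELSR and desmosomal cadherins, none was called in limma. The smallest p there was that of FAT3, with a log2 fold change of -0.76 ± 0.19 and a limma adjusted p of 0.0514.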

How the data were processed

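Total RNA of 6 samples was hybridised to Affymetrix arrays. The authors deposited probe set intensities. The submitters' processing notes name RMA, with the version not given in sources used here. The linear scale was read from the values (1.55 to 6658). No counts stand behind them, and precision is limited by having 3 arrays a group. Sources used here give no scan date or batch. Here log2 was taken without a pseudocount. Of 49293 probe sets, 44988 had 1 symbol, and the brightest by mean log2 stood for each of 18132 genes. No dim genes were removed.

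Knockdown was compared with control by limma 3.58.1 (R 4.3.3, lmFit and eBayes, Benjamini-Hochberg over all genes, threshold 0.05), and the step was tested on simulated data. Python 3.11.15 drew the figures. Genes were named if they passed, changed at least 2-fold or were among the 8 brightest, with CDH1, CDH2, CDH3 and CDH5 always. Others, given briefly, were named after their values were seen. From each list came up to 3 rises and 3 falls, or the smallest p. The family, lists and alternatives were chosen with earlier results of these data known. The labels do not say that replicate numbers pair the arrays, and the main fit did not pair them.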

Additional observations from a re-analysis of the deposited data

How the results depend on the processing

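Counts of family members that rose and fell were 2 and 3. Leaving out 1 array gave 1 to 5 and 0 to 4. The upper ends of these and the later ranges of counts came from the fit without control replicate 2. That fit called 10.3% of the family and 20.6% of all genes, against 5.75% and 7.83% with all arrays. Shares over all genes in the other fits were not counted. The count that rose was 1 without the dimmest 50% of genes, a filter that removed CDH11 and PCDHB15 before the test. PCDH9, CDH12 and PCDHB6 stayed called there. With a gene's probe sets averaged the count that rose was 1, and with a pseudocount of 8 the count that fell was 1. Per probe set, 3 of 176 rose and 4 fell, where 4.43% of all probe sets were called, with 0 to 4 and 0 to 7 without 1 array. List genes numbered 5 up and 7 down, with 1 to 9 and 1 to 14 without 1 array. The lists' rises were 2 with the replicate block, 8 with array weights, 2 with averaged probe sets and 3 with the less specific probe sets (_x_at, _s_at) left out. Their falls were 3 with averaged probe sets and 2 with a pseudocount of 8. MAP4K5 ran from -2.01 to -1.95 without 1 array. The labels do not say that replicate numbers pair the arrays. Deviations of same-numbered arrays correlated at -0.08, 0.02 and 0.06 across genes, and whether such arrays were handled together was not tested. Of the 13 named members the replicate block ended the call of PCDHB6 (-0.55, limma adjusted p = 0.0517) and no other. PCDHB15 (-0.27, limma adjusted p = 0.0673) and PCDHB6 (-0.48, 0.0629) lost their calls with a pseudocount of 8, and PCDHB2 gained one with averaged probe sets (-0.35, 0.0465). Uncalled values near 0 changed sign: CDH1 with array weights (0.00019) and in 3 fits without 1 array (-0.091 to 0.018 over the 6), PCDH17 without control 3 (-0.0019 to 0.19) and PCDHB5 without control 3 (-0.10 to 0.36). The causes were not tested.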
